A study of Homo sapiens with 6 samples.

Results

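Genes of the insulin-like growth factor (IGF) system were chosen by symbol. They were 6 IGF-binding proteins (IGFBP2, IGFBP3, IGFBP4, IGFBP5, IGFBP6 and IGFBP7), the receptors IGF1R, IGF2R and INSR, and IRS1, the docking protein that the insulin and IGF1 receptors phosphorylate. They made up 10 of the 58884 genes in the deposited table, and each symbol had 1 row. RNA-seq compared untreated KYSE70 cells, a human line of esophageal squamous cell carcinoma (ESCC) that carries a mutant NFE2L2 gene, with untreated NRF2null-KYSE70 cells, which were derived from 1 KYSE70 clone after CRISPR-Cas9 cutting in exon 2 of NFE2L2. Each line had 3 libraries, both lines were kept in medium with serum, and IGFs supplied by the serum were not measured. With 1 clone, a difference between the lines is a difference between that clone and its parent, and p-values cover only the spread among these libraries, since nothing in the labels says that they came from separate cultures.

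IGF1 and IGF2 act on cells through IGF1R, a receptor tyrosine kinase closely related to the insulin receptor INSR, and the signal passes through IRS proteins to PI3K-AKT and through adaptors to the RAS-MAP kinase cascade. IGF2R carries no kinase, removes IGF2 from the cell surface and takes lysosomal enzymes with a mannose 6-phosphate tag to the lysosome. The IGFBPs are secreted proteins that hold IGFs away from IGF1R or release them, often after a protease has cut the IGFBP. Squamous epithelia make several of them, and IGFBP3 is a familiar product of keratinocytes.

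The libraries held 52072801 to 63975313 gene-assigned reads each, and 21756 to 22466 genes had a read. Pearson r of log2 values over the tested genes lay between 0.989 and 0.991 in the 6 within-line pairs of libraries and between 0.938 and 0.942 in the 9 pairs across lines. NFE2L2 RNA, the targeted gene, was still present in the clone at 61.4% of the parental level (9928 ± 102 against 6093 ± 319 normalized counts, mean ± SD, n = 3 each). RNA from a frameshifted gene can persist, so this level does not measure NRF2 protein. The study detected shorter NFE2L2 transcript variants and a faint, smaller NRF2 band in this clone, and describes its loss of NRF2 as incomplete. KEAP1 RNA, which was not targeted in this clone, was also lower, at 58.3% of the parental level (log2 fold change -0.78, limma adjusted p = 1.2e-07). A fall of this size was thus not particular to the cut gene. All 13 squamous epithelial markers examined had a mean of at least 10 normalized counts. Their summed levels were 388269 to 399982 in KYSE70 and 298620 to 317014 in NRF2null-KYSE70. KRT5, the largest part of the sum (207890 to 213140 against 121672 to 127862), was lower, as were KRT15, TP63, SFN, DSG3, JUP and PERP. KRT6A (36876 to 37735 against 59466 to 61198), KRT14, KRT17, CDH1 and EPCAM were higher in every clone library, and DSP overlapped between the lines. Of 10 fibroblast markers, COL1A1, COL3A1, THY1 and POSTN reached a mean of 10 (list sum 25193 to 26276 against 28554 to 31497, mostly POSTN). COL1A2, DCN, PDGFRA and FAP held 3 reads or fewer in each library. COL1A1 and COL3A1 went against the sum, at 1172 to 1333 and 212 to 282 normalized counts in KYSE70 and 463 to 605 and 6.86 to 11.4 in NRF2null-KYSE70. Of 7 endothelial markers, PECAM1, CDH5, KDR and CLDN5 were at that floor and VWF and TEK were above 10 (list sum 138 to 162 against 293 to 499). Of 8 leukocyte markers, CD3E, MS4A1, CD68 and CSF1R were at the floor and only PTPRC was above 10 (list sum 1.78 to 15.8 against 42.2 to 58.2). The part of these other cell type markers in the differences of the IGF genes was not tested.

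Among the 10 genes, IGFBP2 and IGFBP4 were much lower in NRF2null-KYSE70, and IGFBP3 and IRS1 were much higher. IGFBP5 was lower by close to 2-fold, and IGF1R, IGF2R and INSR were each higher by less than 2-fold. IGFBP6 did not pass the test, and IGFBP7 had almost no reads in either line. Values are normalized counts (gene read counts after division by a size factor for each library), and genes with a mean of at least 10 were tested with limma on log2(normalized count + 1). A gene is called higher or lower here at a Benjamini-Hochberg adjusted p under 0.05 over all 15994 tested genes, and the study's further cut-off, a log2 change of 1 or more in size, is named where it is used. Of the 9 members tested, 5 were higher and 3 lower by adjusted p, where the background was 57.6% of all tested genes called, 29.3% higher and 28.3% lower. At both cut-offs 2 were higher and 2 lower, where the background was 14.7% called, 7.23% higher and 7.43% lower. The values of the 2 lines did not overlap for 8 of the 9, against 63.4% of all tested genes. With backgrounds of this size, the directions and sizes of the single genes say more than the number called.

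**Figure D1:**
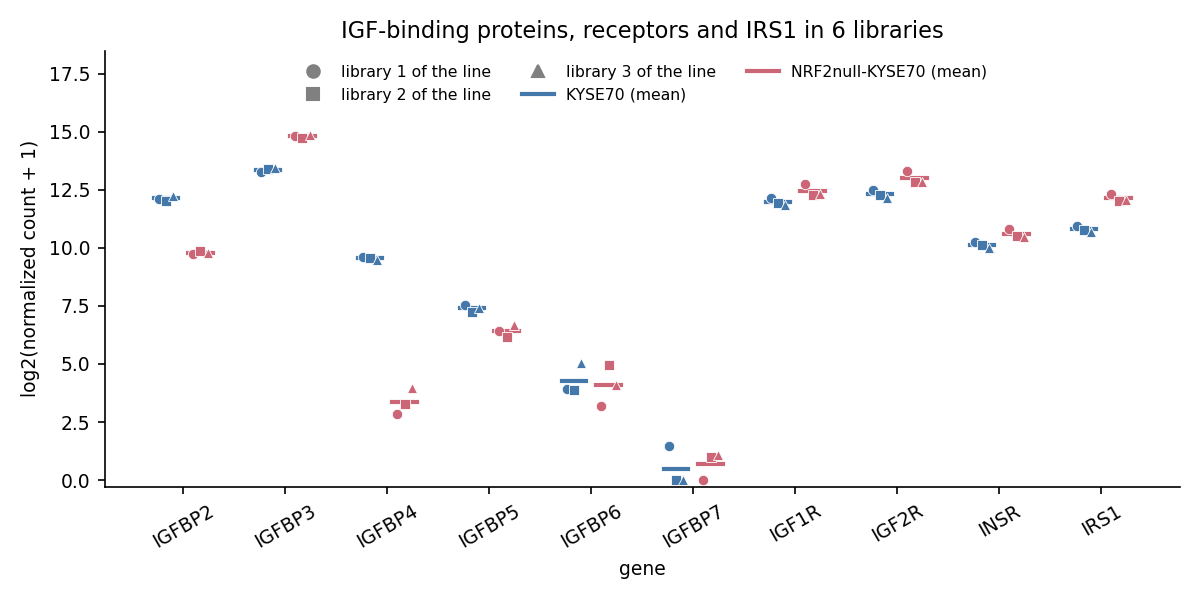
Each point is 1 library, with the gene on the horizontal axis and log2(normalized count + 1) on the vertical axis; blue marks KYSE70, red marks NRF2null-KYSE70, the marker shape gives the library number and the bar is the mean of 3 libraries. The 2 lines stand apart for every gene except IGFBP6 and IGFBP7, and the largest gap is that of IGFBP4, from 751 to 9.92 normalized counts.

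The 250 bases upstream of the RefSeq start are shown for the 4 genes past both cut-offs, since these are the sequences next to the starts of the genes that differed most. Sequences are from RefSeq (GRCh38.p14), read 5′ to 3′ on the strand of the gene, and none overlaps an annotated exon of GENCODE v44. For IGFBP3 the RefSeq start lies downstream of the outermost GENCODE start, so that its window falls within the GENCODE span of the gene. Capitals mark matches to a GC box (GGGCGG, or CCGCCC on the other strand) and to a TATA box (TATAAA).
IGFBP2 (chr2:216632578-216632827, plus strand): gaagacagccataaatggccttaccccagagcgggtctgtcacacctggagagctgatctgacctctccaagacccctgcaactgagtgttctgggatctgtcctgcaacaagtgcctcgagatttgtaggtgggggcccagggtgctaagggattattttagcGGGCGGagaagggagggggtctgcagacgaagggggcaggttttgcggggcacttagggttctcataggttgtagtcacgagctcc
IGFBP4 (chr17:40443200-40443449, plus strand): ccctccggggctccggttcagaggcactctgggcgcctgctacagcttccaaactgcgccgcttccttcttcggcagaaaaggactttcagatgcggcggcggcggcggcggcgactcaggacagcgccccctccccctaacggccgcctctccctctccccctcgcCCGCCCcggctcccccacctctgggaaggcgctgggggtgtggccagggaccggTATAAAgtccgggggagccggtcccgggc
IGFBP3 (chr7:45921273-45921522, minus strand): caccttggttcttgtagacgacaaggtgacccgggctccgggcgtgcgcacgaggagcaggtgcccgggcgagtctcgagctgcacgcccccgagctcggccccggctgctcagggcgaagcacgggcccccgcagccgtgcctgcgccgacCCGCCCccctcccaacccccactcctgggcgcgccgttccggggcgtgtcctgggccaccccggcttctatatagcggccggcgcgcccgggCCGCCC
IRS1 (chr2:226799821-226800070, minus strand): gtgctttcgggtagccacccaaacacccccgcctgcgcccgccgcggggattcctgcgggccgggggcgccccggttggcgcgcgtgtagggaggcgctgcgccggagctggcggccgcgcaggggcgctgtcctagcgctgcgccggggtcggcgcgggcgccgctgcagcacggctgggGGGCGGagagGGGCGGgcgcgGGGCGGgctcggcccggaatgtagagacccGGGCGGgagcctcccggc
The stretch before IGFBP2 had a GC content of 56.8%, against 71.6% for IGFBP4, 76.0% for IGFBP3 and 80.8% for IRS1. IGFBP2 had 1 GC box, IGFBP3 had 2 and IRS1 had 4, whereas IGFBP4 had 1 GC box and a TATA box 29 to 24 bases before its start.

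Promoters were found for 9 of the 10 genes, and 6 motifs were searched on both strands. The IGFBP6 window also follows a RefSeq start downstream of the outermost GENCODE start, and it lies mostly within the GENCODE gene and overlaps 1 of its exons. The IGFBP5 window overlaps 1 exon of DIRC3-AS1. A GC box was present in 8 of the 9, all but IGFBP5, and in 42.3% of 27305 promoters of this length. The core of the antioxidant response element, which NRF2 recognises (TGACNNNGC), was in none of the 9 windows and in 11.03% of all promoters. The AP-1 site TGACTCA, which can overlap that core, was also in none of the 9 and in 4.16% of all. A TATA box was present in 1 of the 9 (IGFBP4; 11.1% of all promoters), a FOXO site GTAAACA in 1 (IGFBP6; 2.98%) and an E-box CACGTG in 1 (IGF2R, with 3 copies; 6.49%). The absence of a match says only that these letters are not in this window.

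IGFBP4 (ENSG00000141753, chromosome 17, 40443450 to 40457725, plus strand, hg38) encodes a binding protein that mostly restrains IGF action and is released from IGF by the protease PAPPA. It was measured at 783, 764 and 705 normalized counts in the KYSE70 libraries and at 6.09, 8.83 and 14.8 in the NRF2null-KYSE70 libraries. The 3 parental libraries were thus all high, the 3 clone libraries were all close to the limit of detection, and the lines were far apart. In reads, these were 880, 842 and 669 against 6, 9 and 13, so the clone retained 1.32% of the parental mean (751 ± 40.2 to 9.92 ± 4.48, SD, n = 3; 75.7-fold lower). The log2 fold change was -6.18 ± 0.28 (SE) with a limma adjusted p of 1.47e-09. In bulk RNA, fewer cells with a transcript and less transcript per cell cannot be told apart. The 30 tested protein-coding genes within 1 Mb showed a median log2 change of 0.01, with 8 higher and 6 lower. These counts, and those of neighbours given below, are to be read beside the 29.3% higher and 28.3% lower of all tested genes. The part of the chromosome region in the fall of IGFBP4 was not tested.

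IGFBP2 (ENSG00000115457, chromosome 2, 216632828 to 216664436, plus strand) encodes a binding protein that also contacts integrins. Its normalized counts were 4482, 4207 and 4817 in KYSE70 and 853, 922 and 873 in NRF2null-KYSE70. Every clone library lay below every parental library, and the spread within each line was small beside the gap. The mean fell from 4502 ± 305 to 883 ± 35.3 (SD, n = 3), which is 5.10-fold lower, and the log2 fold change was -2.35 ± 0.07 (SE) at a limma adjusted p of 2.62e-11.

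IGFBP5 (ENSG00000115461, chromosome 2, 216672105 to 216695549, minus strand), a binding protein with affinity for the extracellular matrix, lies 7668 bp beyond the end of IGFBP2 on the opposite strand, so that the genes meet tail to tail. It was measured at 183, 151 and 172 normalized counts in KYSE70 and at 85.2, 69.6 and 102 in NRF2null-KYSE70. The lines did not overlap, and the clone was at 50.6% of the parental mean (169 ± 16.1 to 85.5 ± 16, SD, n = 3). Its log2 fold change was -0.99 ± 0.20 (SE) at a limma adjusted p of 0.000851, just short of the study's fold cut-off, which it passed in 4 of 19 alternative analyses. Both genes of this pair were therefore lower, but IGFBP2 fell further, and the log2 ratio of IGFBP2 to IGFBP5 within a library went from 4.73 ± 0.11 to 3.37 ± 0.31 (SD). Each gene of the pair had 8 tested protein-coding neighbours within 1 Mb, a count that includes the other gene of the pair. Their median log2 change was -0.09 for either gene, with 1 higher and 2 lower. The other gene of the pair was 1 of the 2 lower neighbours. DIRC3-AS1, which overlaps IGFBP5 exons on the opposite strand, was listed at 0 in both lines.

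IGFBP3 (ENSG00000146674, chromosome 7, 45912245 to 45921874, minus strand), the main IGF carrier of blood and the most abundant transcript of the family in both lines, moved the other way. Its normalized counts were 9829, 10846 and 11046 in KYSE70 and 29045, 27261 and 30097 in NRF2null-KYSE70. All 3 clone libraries were well above all 3 parental libraries. The mean went from 10574 ± 653 to 28801 ± 1434 (SD, n = 3), 2.72-fold higher, and the log2 fold change was 1.45 ± 0.06 (SE) at a limma adjusted p of 4.2e-10. The 4 tested protein-coding neighbours within 1 Mb showed a median log2 change of -0.07, and 2 of them were lower and 0 higher.

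IGFBP6 (ENSG00000167779, chromosome 12, 53097436 to 53102345, plus strand) encodes the binding protein that prefers IGF2. It was low, at 14.2, 13.6 and 31.6 normalized counts in KYSE70 and 8.11, 30.4 and 15.98 in NRF2null-KYSE70. The lines overlapped, with 1 high library in each, and no difference was detectable at this depth (19.8 ± 10.2 against 18.2 ± 11.3, SD, n = 3; log2 fold change -0.19 ± 0.54, SE; limma adjusted p = 0.783). Its 41 tested neighbours within 1 Mb had a median log2 change of -0.55, with 9 higher and 25 lower, and the median of the arm 12q was -0.38. IGFBP7 (ENSG00000163453, chromosome 4, 57030773 to 57110385, minus strand), a low-affinity relative, had 2, 0 and 0 reads in KYSE70 and 0, 1 and 1 in NRF2null-KYSE70. Both lines were at the floor of 3 reads per library, so IGFBP7 was not tested in the main analysis and has no fold change. It overlaps POLR2B exons on the opposite strand (11704 against 14390 normalized counts), and the use of strand in counting was not stated.

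**Figure D2:**
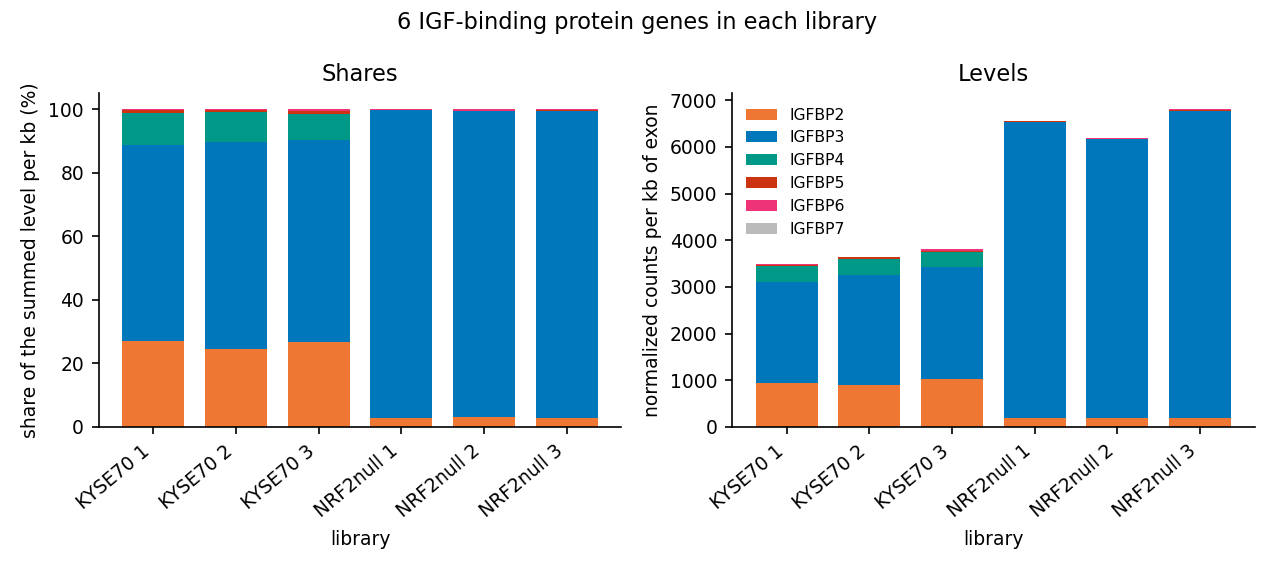
Stacked bars give, for each library, the share of each IGF-binding protein gene in the summed level of the 6 genes (left, percent) and the levels themselves (right, normalized counts per kb of exon). IGFBP3 takes 61.6% to 65.2% in the 3 KYSE70 libraries and 96.3% to 96.9% in the 3 NRF2null-KYSE70 libraries, on top of a higher summed level.

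Set side by side per kb of exon, the 6 IGFBP transcripts changed in make-up. In KYSE70, IGFBP3 accounted for 63.5% ± 1.79 of the summed level per kb, IGFBP2 for 26.05% ± 1.47 and IGFBP4 for 9.36% ± 0.887 (SD, n = 3). In NRF2null-KYSE70 the same shares were 96.7% ± 0.353, 2.86% ± 0.238 and 0.0685% ± 0.0286. A mixture led by IGFBP3 with a sizeable part of IGFBP2 was thus replaced by almost IGFBP3 alone. IGFBP5 and IGFBP6 together stayed small in both lines, at 0.718% and 0.399% in KYSE70 and 0.202% and 0.210% in NRF2null-KYSE70. The summed level per kb was 3645 ± 156 in KYSE70 and 6521 ± 306 in NRF2null-KYSE70, so the IGFBP transcripts as a whole were higher in every clone library although 3 of the genes fell. Shares depend on the length used, and with the longest transcript in place of all exons IGFBP3 held 74.1% and 97.9%.

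The receptors and IRS1 were all higher in the clone. IGF1R (ENSG00000140443, chromosome 15, 98648539 to 98964530, plus strand), the signalling receptor for both IGFs, was measured at 4503, 3950 and 3749 normalized counts in KYSE70 and at 6890, 4985 and 5174 in NRF2null-KYSE70. The lines did not overlap, although the first clone library stood above its 2 companions. The mean went from 4067 ± 390 to 5683 ± 1050 (SD, n = 3), 1.40-fold higher, and the log2 fold change was 0.47 ± 0.11 (SE) at a limma adjusted p of 0.00196. Genes on 15q showed a median log2 change of 0.33, and after each arm's median was subtracted, the IGF1R difference was 0.14 with a limma adjusted p of 0.273. A difference of IGF1R beyond that of its chromosome arm was thus not detected.

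INSR (ENSG00000171105, chromosome 19, 7112255 to 7294414, minus strand), the insulin receptor, which also forms hybrids with IGF1R, was measured at 1211, 1128 and 1019.7 normalized counts in KYSE70 and at 1824, 1446 and 1425 in NRF2null-KYSE70. Again the lines did not overlap and the first clone library was the highest. The mean went from 1119.8 ± 96.1 to 1565 ± 224 (SD, n = 3), 1.40-fold higher, and the log2 fold change was 0.48 ± 0.10 (SE) at a limma adjusted p of 0.0012. With arm medians subtracted, INSR was at 0.46 (limma adjusted p = 0.00168).

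IGF2R (ENSG00000197081, chromosome 6, 159969082 to 160113507, plus strand), the clearance receptor for IGF2, was measured at 5854, 4932 and 4564 normalized counts in KYSE70 and at 10100.3, 7255 and 7425 in NRF2null-KYSE70. All clone libraries were above all parental libraries. The mean went from 5116 ± 664 to 8260.2 ± 1596 (SD, n = 3), 1.61-fold higher, and the log2 fold change was 0.68 ± 0.12 (SE) at a limma adjusted p of 0.000236. AIRN, an antisense RNA within IGF2R, was listed at 0 in both lines.

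IRS1 (ENSG00000169047, chromosome 2, 226731312 to 226799820, minus strand) changed most in this group. Its normalized counts were 1961, 1765 and 1649 in KYSE70 and 5079.5, 4162 and 4322 in NRF2null-KYSE70. Each clone library held more than every parental library by a wide margin. The mean went from 1792 ± 158 to 4521 ± 490.2 (SD, n = 3), 2.52-fold higher, and the log2 fold change was 1.33 ± 0.08 (SE) at a limma adjusted p of 2.92e-08. The 5 tested protein-coding neighbours of IRS1 within 1 Mb showed a median log2 change of 0.87, and 4 of them were higher and 0 lower.

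**Figure D3:**
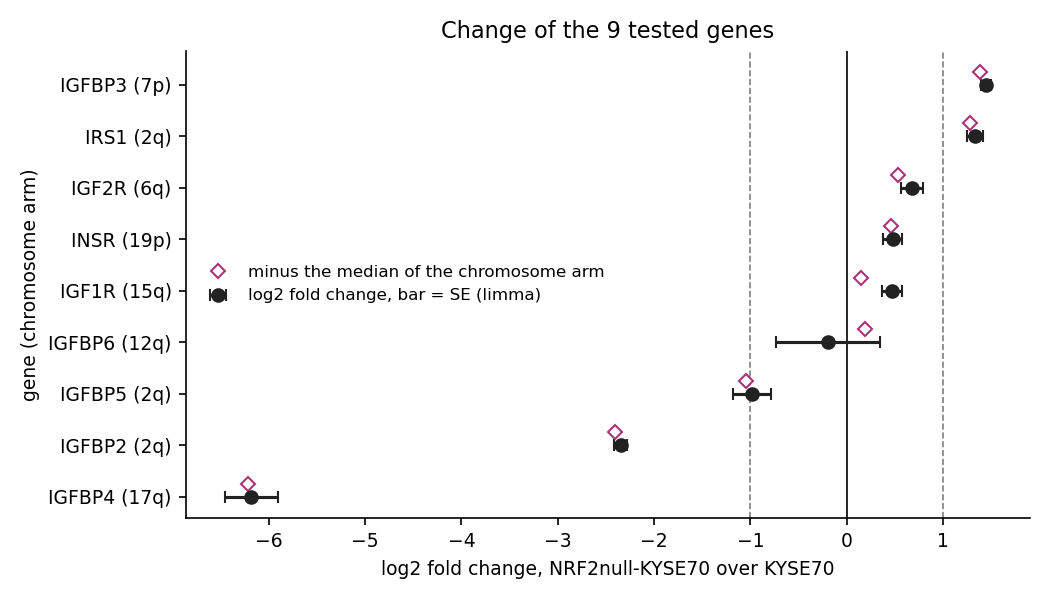
The horizontal axis is the log2 fold change of NRF2null-KYSE70 over KYSE70 for the 9 tested genes, black points with SE bars are the limma values, and open diamonds are the values after the median of the chromosome arm was subtracted. IGFBP4, IGFBP2, IGFBP3 and IRS1 lie outside the dashed lines at -1 and 1 in both forms, IGFBP5 goes from -0.99 to -1.04, and IGF1R moves from 0.47 to 0.14.

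The 4 genes with long transcripts, IGF1R, IGF2R, INSR and IRS1, shared a pattern across libraries of the same line. Each was highest in the first library of both lines. For IGF1R, the 3 KYSE70 libraries deviated from the line's mean by 0.15, -0.04 and -0.11 on the log2 scale and the 3 NRF2null-KYSE70 libraries by 0.29, -0.17 and -0.12. Genes with a mean of at least 100 normalized counts were split into 1257 with a transcript of at least 8 kb and 10723 others. The median deviation of the 1257 long genes was also highest in the first library of both lines. It was 0.04, 0.01 and -0.05 in KYSE70 and 0.11, -0.05 and -0.06 in NRF2null-KYSE70, whereas that of the 10723 other genes stayed near 0. Between the lines, these 1257 long genes showed a median log2 change of 0.14, and 45.4% of them were higher and 23.9% lower. Without the first library of each line, the log2 fold changes were 0.40 for IGF1R, 0.63 for IGF2R, 0.42 for INSR and 1.31 for IRS1, and all 4 kept a limma adjusted p under 0.05. The part of transcript length in the differences between the lines was not tested.

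**Figure D4:**
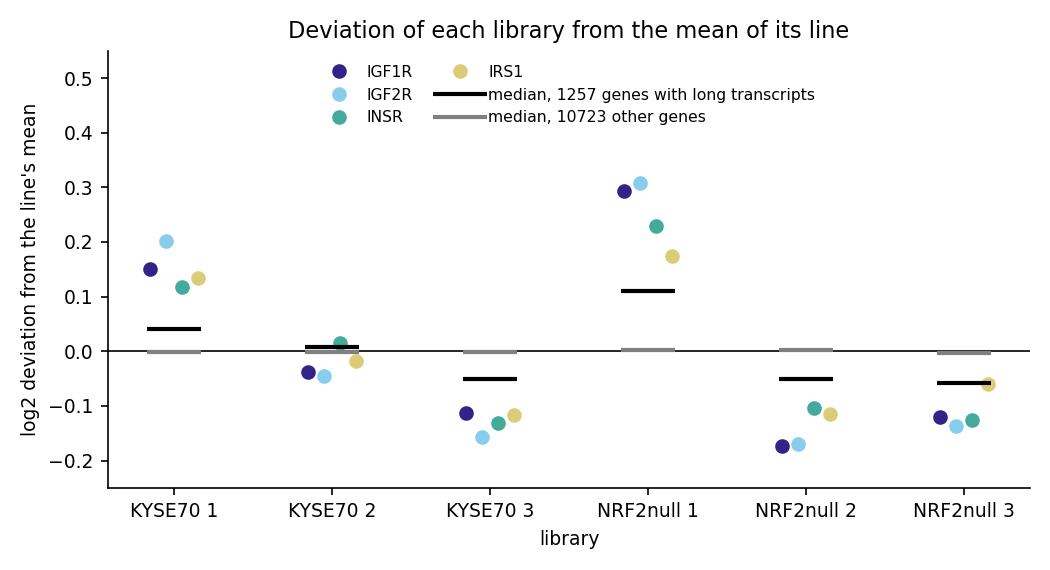
For each library, points give the log2 deviation of IGF1R, IGF2R, INSR and IRS1 from the mean of the line, and bars give the median deviation of 1257 genes with long transcripts (black) and 10723 others (grey). Both sets hold only genes with a mean of at least 100 normalized counts. The 4 genes and the long genes sit above 0 in the first library of both lines, and the 4 genes sit at or below 0 in nearly all of the others.

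Ratios between genes within a library depend little on the size factor, and 6 were compared with a two-sided exact permutation test, which cannot go below p = 0.1 with 3 against 3. The log2 ratio of IGF1R to INSR was 1.86 ± 0.05 in the parent and 1.85 ± 0.07 in the clone (SD, n = 3; exact p = 1). Both of these genes have long transcripts, whereas a ratio of an IGFBP to IGF1R still holds the shift of the long genes. The balance of IGF1R and INSR differed by less than the spread between libraries. The log2 ratio of IGF2R to IGF1R was 0.33 ± 0.05 and 0.54 ± 0.02, and the 2 lines did not overlap (exact p = 0.1, the smallest possible; 0.15 adjusted over the 6 ratios). The same p was found for IGFBP3 over IGF1R (1.38 ± 0.23 to 2.36 ± 0.25), IGFBP3 over IGFBP5 (5.96 ± 0.21 to 8.40 ± 0.20) and IGFBP2 over IGFBP5 in the exact permutation test. IGFBP6 over IGF1R was -7.71 ± 0.75 and -8.37 ± 1.13 (exact p = 0.4; 0.48 adjusted).

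Ordered by level per kb of exon, KYSE70 had IGFBP3 at the top (2314 ± 143 normalized counts per kb, SD, n = 3), followed by IGFBP2 (949 ± 64.4), IGFBP4 (340.4 ± 18.2), IGF1R (292 ± 28), IGF2R (226 ± 29.4), IRS1 (179 ± 15.7) and INSR (103 ± 8.87). IGFBP5 (26.1 ± 2.49), IGFBP6 (14.7 ± 7.60) and IGFBP7 (0.307 ± 0.532) closed the order. The library ranges of IGFBP4 and IGF1R overlapped, as did those of IGFBP5 and IGFBP6, so these neighbours are not ordered. In NRF2null-KYSE70, IGFBP3 (6304 ± 314) was followed by IRS1 (451 ± 48.9), IGF1R (408 ± 75.3) and IGF2R (365 ± 70.6), whose ranges overlapped from each to the next. IGFBP2 (186 ± 7.45), INSR (144 ± 20.7), IGFBP6 (13.5 ± 8.40), IGFBP5 (13.2 ± 2.47), IGFBP4 (4.498 ± 2.03) and IGFBP7 (0.367 ± 0.320) came after them, and again IGFBP5 and IGFBP6 were not separable. IGFBP3 exceeded the next gene by 2.44-fold in KYSE70 and by 13.97-fold in NRF2null-KYSE70. These ratios depend on the length used, and by the longest transcript they were 3.94-fold and 18.86-fold. IRS1 lay below IGF2R in KYSE70 and overlapped IGF1R in the clone, and IGFBP4 overlapped IGF1R in KYSE70 and lay below IGFBP5 in the clone. With the length of the longest transcript instead, the ranges of IGF2R overlapped those of IGFBP4 in KYSE70 and those of IGF1R in NRF2null-KYSE70. By this length the mean of IGF2R was above that of IGF1R in KYSE70 (360 against 332 normalized counts per kb) and in NRF2null-KYSE70 (580 against 464). The order of IGF1R and IGF2R thus depends on the length used.

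Genes with the most similar profile to each of the 4 genes past both cut-offs were found among 11997 genes with a mean of at least 100, by the Euclidean distance between their centred log2 values in the 6 libraries. With 2 groups, this measure mainly finds genes with a like difference between the lines. For IGFBP2 they were IAH1 (distance 0.0788), SLC4A11 (0.228) and ZNF703 (0.230), and for IGFBP3 they were ALDH1L1 (0.147), SKIL (0.149) and CTSV (0.155). For IRS1 they were RIPK4 (0.0961), CDH2 (0.1005) and INAFM2 (0.106). IGFBP4 had no close match, and its nearest genes were NDRG1 (0.867), ST3GAL1 (1.08) and SAMD5 (1.08).

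Of the genes around the receptors, 158 on 8 lists written from general knowledge were examined, and 135 were tested. By adjusted p, 71 (52.6%) were higher and 31 (23.0%) lower in the clone, beside the 29.3% and 28.3% of all tested genes, and the median log2 fold change was 0.19 against -0.01 over all tested genes. With the 2-fold cut-off added, 19 of the 135 were higher and 7 lower, beside 7.23% and 7.43% of all tested genes. The counts given for single lists below are to be read beside these same shares of all tested genes. No set test was made, and the lists were written with earlier results of these data known.

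**Figure D5:**
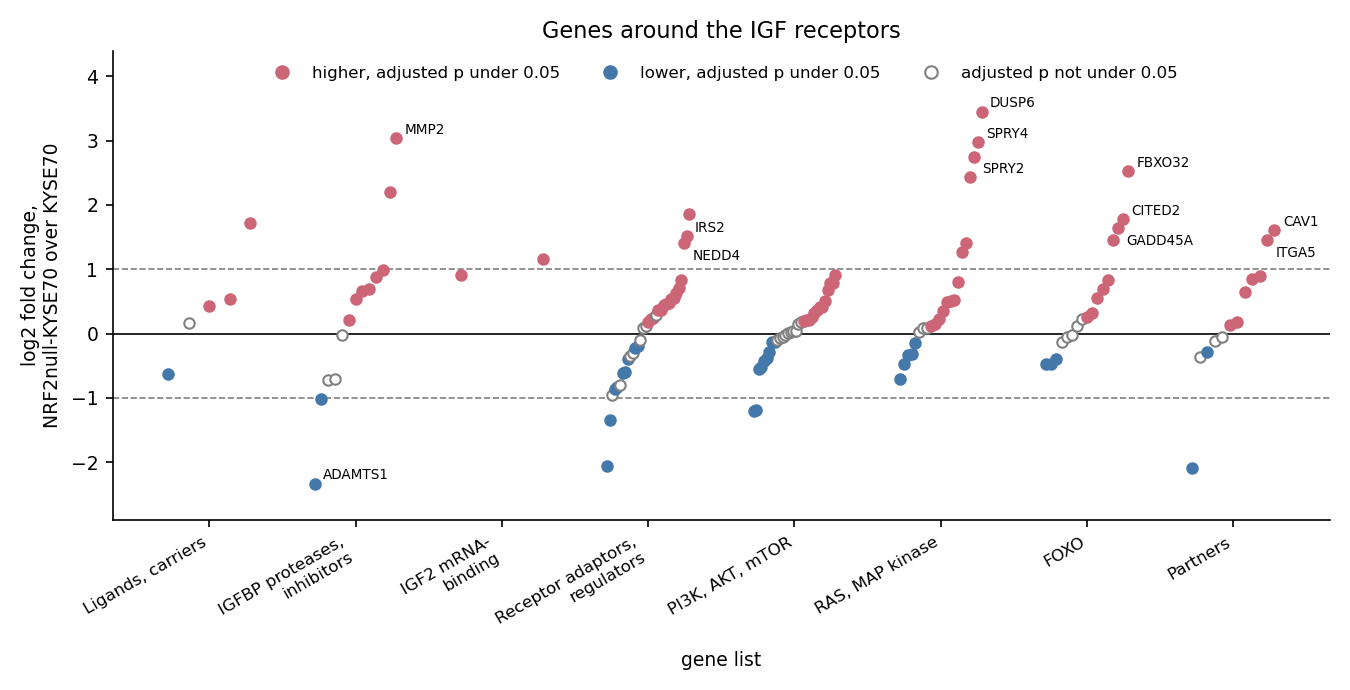
Each point is 1 tested gene, placed by list on the horizontal axis and by the log2 fold change of NRF2null-KYSE70 over KYSE70 on the vertical axis; filled red and blue points passed limma's adjusted p under 0.05, open points did not, and dashed lines mark -1 and 1. The highest points are the feedback genes DUSP6, SPRY4 and SPRY2 of the MAP kinase list and the protease MMP2, and the lowest is ADAMTS1.

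The ligands were scarce. IGF1 went from 5.64 ± 1.33 normalized counts in KYSE70 to 21.6 ± 7.98 in the clone (SD, n = 3), which rests on 18 and 61 reads in all (log2 fold change 1.72 ± 0.53, SE, limma adjusted p = 0.0135). IGF2 did not pass the test, at 53.1 ± 8.88 and 60.2 ± 13.2 (limma adjusted p = 0.623), and its count is uncertain because it shares exons with the readthrough gene INS-IGF2. INS and IGFBP1 had 0 reads in the 6 libraries, IGFALS had 4 and 5 reads, and ESM1 had 0 and 8. The relatives of the binding proteins were better expressed. HTRA1, a secreted protease with an IGFBP-like domain, rose from 7659.6 ± 251 to 11120.2 ± 548 normalized counts (log2 fold change 0.54, limma adjusted p = 1.4e-06), KAZALD1 rose from 685 ± 76.1 to 919.6 ± 46.4 (0.43, limma adjusted p = 0.00196), and IGFBPL1 fell from 775 ± 24.4 to 499.8 ± 31.9 (-0.63, limma adjusted p = 5.36e-05). Of the 5 tested on this list, 3 were higher, 1 was lower and 1 did not pass.

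Among the proteases that cut IGFBPs and their inhibitors, 13 of 20 were tested, with 8 higher and 2 lower. MMP2, a matrix metalloproteinase, was measured at 1426, 1317 and 1227 normalized counts in KYSE70 and 11645, 10410.0 and 10489 in NRF2null-KYSE70. The clone was far above the parent in all libraries (log2 fold change 3.03 ± 0.07, SE, limma adjusted p = 2.8e-12). ADAM9, a membrane-bound metalloproteinase, rose from 12702 ± 577 to 23282 ± 1968 normalized counts (0.87, limma adjusted p = 8.88e-08). The 2 lower genes were ADAMTS1, from 795 ± 91.4 to 158 ± 32.7 (-2.34, limma adjusted p = 5.76e-08), and PAPPA, the protease of IGFBP4, from 652 ± 84.8 to 319 ± 28.4 (-1.02, limma adjusted p = 1.11e-05). IGFBP4 and PAPPA, substrate and protease, were thus both lower in the clone, with IGFBP4 reduced far more. The IGF2 mRNA-binding proteins IGF2BP2 (13237 ± 393 to 29689.7 ± 1898 normalized counts; log2 fold change 1.16, limma adjusted p = 1.86e-09) and IGF2BP3 (4509 ± 81.4 to 8448 ± 125; 0.91, limma adjusted p = 4.22e-09) were both higher, and IGF2BP1 was below the filter.

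Of 33 tested adaptors and regulators of the receptors, 16 were higher and 9 lower. IRS2, the close relative of IRS1, was measured at 1584, 1516 and 1429 normalized counts in KYSE70 and 5159, 3965 and 3887 in NRF2null-KYSE70. It rose in parallel with IRS1 (log2 fold change 1.51 ± 0.09, SE, limma adjusted p = 3.22e-08), and no library of one line reached the other. NEDD4, a ubiquitin ligase that acts on IGF1R through GRB10, rose from 5741 ± 126 to 15169 ± 741 (1.40, limma adjusted p = 1.77e-10). SOCS3, an inhibitor of IRS signalling, rose from 244 ± 32.8 to 434 ± 9.87 (0.84, limma adjusted p = 9.43e-05). The other SOCS genes on the list went both ways. SOCS6 was higher (0.37, limma adjusted p = 0.00478), whereas SOCS1 (-1.34, limma adjusted p = 0.00674) and SOCS2 (-0.40, limma adjusted p = 0.000297) were lower. Among genes with a mean of at least 100, the largest falls were those of TNS2 (-0.87, limma adjusted p = 4.91e-05), SH2B1 (-0.84, limma adjusted p = 9.66e-08, on 16p with an arm median of -0.49) and GAB1 (-0.62, limma adjusted p = 5.22e-05). Below that mean, GRB14 (-2.07, limma adjusted p = 0.000593) and SOCS1 were lower past both cut-offs.

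The PI3K, AKT and mTOR list had 13 of 32 tested genes higher and 9 lower, and its median log2 fold change was 0.03. The catalytic subunits PIK3CB (4612 ± 145 to 8658 ± 453 normalized counts; 0.91, limma adjusted p = 1.62e-08) and PIK3CD (195 ± 26.6 to 335 ± 41.2; 0.78, limma adjusted p = 0.000579) rose, as did the translation repressor EIF4EBP1 (0.79, limma adjusted p = 9.32e-08). PIK3R1, the regulatory subunit that binds phosphorylated IRS proteins, was measured at 2554, 2453 and 2493 normalized counts in KYSE70 and 1182, 1112 and 1011 in NRF2null-KYSE70. It fell while IRS1 and IRS2 rose (log2 fold change -1.18 ± 0.07, SE, limma adjusted p = 1.88e-08). MLST8 (-0.55, limma adjusted p = 3.58e-06) and TSC2 (-0.53, limma adjusted p = 2.97e-06) fell as well, but both lie on 16p, where the arm median was -0.49. Several other genes named here and above also lie on shifted arms. The arm median was 0.28 on 3q, where PIK3CB and IGF2BP2 rose, and 0.33 on 15q, where NEDD4 rose. It was -0.38 on 8p, where ADAM9 and EIF4EBP1 rose, and -0.38 on 12q, where TNS2 fell.

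In the RAS and MAP kinase list, 14 of 22 were higher and 5 lower, and the 6 that rose by at least 2-fold were DUSP6, SPRY4, SPRY2, DUSP5, DUSP4 and RPS6KA3. The DUSPs are phosphatases of MAP kinases, and the Sprouty genes SPRY2 and SPRY4 encode inhibitors that the same cascade induces. DUSP6 was measured at 310.4, 239 and 297 normalized counts in KYSE70 and 3304, 3094 and 2868 in the clone (log2 fold change 3.45 ± 0.10, SE, limma adjusted p = 3.96e-11). SPRY4 (266 ± 17.7 to 2095 ± 106; 2.98, limma adjusted p = 3.59e-11) and SPRY2 (497 ± 35.3 to 3348 ± 59.0; 2.75, limma adjusted p = 1.31e-11) rose nearly as far. SPRY1 did not pass the test, at 165 ± 23.6 and 167 ± 22.1 (log2 fold change 0.02 ± 0.18, SE, limma adjusted p = 0.940). HRAS (-0.48, limma adjusted p = 1.19e-05) and RPS6KA1 (-0.33, limma adjusted p = 6.78e-05) were lower.

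FOXO factors, which AKT keeps out of the nucleus, and genes they are known to induce had 9 of 17 tested members higher and 3 lower. FBXO32, a ubiquitin ligase subunit, rose from 213 ± 42.1 to 1218 ± 46.4 normalized counts (log2 fold change 2.53, limma adjusted p = 8.2e-09), CITED2 from 385 ± 28.5 to 1321 ± 68.7 (1.78, limma adjusted p = 4.71e-09) and GADD45A from 3202 ± 111 to 9992 ± 357 (1.64, limma adjusted p = 5.18e-11). BCL2L11 (-0.48, limma adjusted p = 2.64e-05), SESN3 (-0.48, limma adjusted p = 6.44e-06) and SESN1 (-0.39, limma adjusted p = 0.00481) fell, so FOXO-responsive genes went both ways. Among 12 tested partners of the receptors and IGFBPs, 7 were higher and 2 lower. CAV1, the coat protein of caveolae, was higher in every library of the clone (23902 ± 201 to 72693 ± 1443; 1.60, limma adjusted p = 1.71e-11), as were the integrin subunits ITGA5 (708 ± 75.4 to 1932 ± 114; 1.45, limma adjusted p = 2.56e-08) and ITGAV (8886 ± 576 to 16542 ± 679; 0.90, limma adjusted p = 2.69e-08). M6PR, the other mannose 6-phosphate receptor, fell from 8998 ± 264 to 7364 ± 176 (-0.29, limma adjusted p = 0.000149), whereas IGF2R rose.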

How the data were processed

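RNA was sequenced from 3 libraries of KYSE70 and 3 of NRF2null-KYSE70. The authors checked reads with FastQC 0.11.5, trimmed them with cutadapt 1.12, aligned them with STAR 2.6.90c to hg38 and counted them per gene with featureCounts 1.5.1, per the labels and the study's methods. The submitters' notes also list mm10, and the methods name a RefSeq annotation although the table lists Ensembl identifiers. Strand use in counting and the treatment of reads with several alignments were not given in the sources used here. The deposited signal was normalized counts, which the authors made by dividing the counts by DESeq2 size factors. Column names gave only the line, and libraries are numbered within it by table order.

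Whole reads were recovered, since 100% of the values in each library were whole multiples of 1 read (tolerance 0.02), and recovered totals ranged from 52072801 to 63975313. The main test was limma 3.58.1 (R 4.3.3; lmFit and eBayes with trend, two-sided) on log2(normalized count + 1) for 15994 genes with a mean of at least 10, with Benjamini-Hochberg adjustment. A fold change on this scale understates the change of low genes. The count tests DESeq2 1.42.0 and edgeR 4.0.16 on the recovered reads were alternatives. They called 2341 and 2350 genes past both cut-offs, and limma called 2344. The limma step was tested on simulated data.

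Levels per kb used the union of GENCODE v44 exons, in which 58472 of the 58884 identifiers were found. Promoters were RefSeq sequences. The floor of 3 reads covers counting error only, and ± values are the SD or SE between libraries. The 10 genes and all lists were chosen with earlier results of these data known. All 10 were named, with every ligand gene and, from each list, up to 3 genes per direction with the largest change among those called with a mean of at least 100. SPRY1, IGF2BP1, DUSP5, DUSP4, RPS6KA3, SOCS1, SOCS2, SOCS6, GRB14 and the overlapping genes were named after their values were seen. A few genes that this rule names are not reported here.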

Additional observations from a re-analysis of the deposited data

How the results depend on the processing

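The calls of IGFBP2 (log2 fold change -2.42 to -2.30), IGFBP3 (1.33 to 1.49), IGFBP4 (-6.49 to -5.70), IGFBP5 (-1.12 to -0.85), IGF2R (0.53 to 0.78), INSR (0.36 to 0.54), IRS1 (1.25 to 1.40) and NFE2L2 (-0.80 to -0.67) held by adjusted p in all 19 alternatives, which changed the pseudocount, filter, scaling, test or libraries. IGF1R lost its call only when arm medians were subtracted (0.14, limma adjusted p = 0.273). IGFBP6 was never called, and it changed sign without KYSE70 library 3 (0.18), without NRF2null-KYSE70 library 1 (0.25), with arm medians subtracted (0.19) and without the first library of each line (0.081, an alternative chosen after seeing the data). Its range with 1 library left out was -0.64 to 0.25. The number of the 10 genes past both cut-offs was 4, and 8 with adjusted p alone. It was 4 to 5 with each library left out in turn. The pathway lists had 71 higher and 31 lower genes, but 19 and 7 with the 2-fold cut-off, and 65 to 70 and 28 to 34 with each library left out. With the longest transcript as the length, the IGFBP3 share was 74.1% in KYSE70 and 97.9% in NRF2null-KYSE70, and with 1 library left out it was 62.6% to 64.4% and 96.5% to 96.9%. A filter at a mean of 50 left 13004 genes, of which 1511 passed both cut-offs, against 2344 of 15994. Total scaling shifted the median log2 fold change by -0.08. No paired analysis was possible because columns named by line alone cannot be matched between the lines. Depth limits IGFBP6 (61 reads in KYSE70 and 53 in NRF2null-KYSE70), IGFBP7, IGF1 and the clone's level of IGFBP4. Other clones were not analysed here.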
